A study of Mus musculus with 4 samples.

Results

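The Slc25 genes encode the mitochondrial carriers, and 46 of the 19505 genes measured on these mouse liver arrays belong to the family. They were taken by symbol, as every gene named Slc25a followed by a number, and each had a single probe set. Family members with other names, such as the uncoupling protein genes, are given separately. The arrays profiled liver at 0 h and 30 h in a study of partial hepatectomy, and the question was the role of Mcu in regeneration. Mcu encodes the pore of the mitochondrial calcium uniporter.

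There were 4 groups with 1 array each, all from male C57BL6J mice that were 10 to 12 weeks old at injection. Mcu knockdown liver (30 h and 0 h) came from mice with floxed Mcu alleles given AAV8-TBG-Cre, and control liver (30 h and 0 h) from littermates given AAV8-TBG-Null. The TBG promoter directs expression to hepatocytes, so the other cells of the liver were not targeted. Surgery removed 70% of the liver 5 weeks after injection, and 0 h is labelled as the control time. The series text states pools of 4 animals per genotype. The control arrays carry the genotype label Wild type although the protocol calls them littermates of floxed mice, and that of the knockdown arrays does not name the gene the protocol names, so groups follow the titles. Descriptions of the samples mention ethanol feeding, which is found nowhere else in the labels, and for the knockdown 30 h array they place collection 1 h after the operation.

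With 1 array per group no value carries an error and no test was made, since an additive fit of genotype and time would take the difference between the 2 responses as its only error. Each difference below is between 2 arrays, on the log2 scale, where 1 means 2-fold. The deposited values are log2 expression after RMA, a method that corrects background, makes arrays comparable and summarises probes. Levels of different genes were not compared, since each probe set binds with its own strength. Of the 46 genes, 34 were bright, meaning that their average over the arrays reached the median of all genes (3.83), and 12 were dim. In dim genes noise may be larger and differences understated, but noise cannot be measured here without replicates. Mcu read 2.63 at 30 h and 2.83 at 0 h in knockdown liver, against 4.30 and 4.77 in control liver, lower on both knockdown arrays. The 10 hepatocyte markers averaged 11.13 and 11.14 in knockdown liver at 30 h and 0 h, and 11.13 and 11.05 in control liver.

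Mitochondrial carriers sit mostly in the inner membrane, where they exchange a metabolite of the matrix for one of the cytosol. They share a fold of repeated segments and differ in the molecule they bind. In liver they join the urea cycle, gluconeogenesis, fatty acid oxidation and haem synthesis to their cytosolic steps, and several carry a domain that binds cytosolic calcium.

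Set against 0 h, the glutamate carrier Slc25a22 and the NAD carrier Slc25a51 were at least 2-fold higher at 30 h in both genotypes. A further 5 carriers, Slc25a25, Slc25a37, Slc25a15, Slc25a30 and Slc25a10, were so in control liver, and their differences in the knockdown were 0.75, -0.12, 0.98, 0.53 and 0.28. In knockdown liver 2 of the 34 bright carriers were at least 2-fold higher at 30 h, against 2.64% of all bright genes, and 1 was at least 2-fold lower, against 2.74%. In control liver 7 passed 2-fold upwards (20.6%), against 5.98% of all bright genes, and 0 were at least 2-fold lower, against 1.61%. The median difference of the bright carriers was 0.09 in knockdown and 0.46 in control liver, beside -0.04 and 0.10 for all bright genes. These shares depend on scaling: after quantile normalization, which brings the median of all bright genes in control liver to -0.03, the control count at 2-fold was 4, against 4.27%. The genes that came under 2-fold there were Slc25a10, Slc25a15 and Slc25a51, at 0.89, 0.85 and 1.00.

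**Figure D1:**
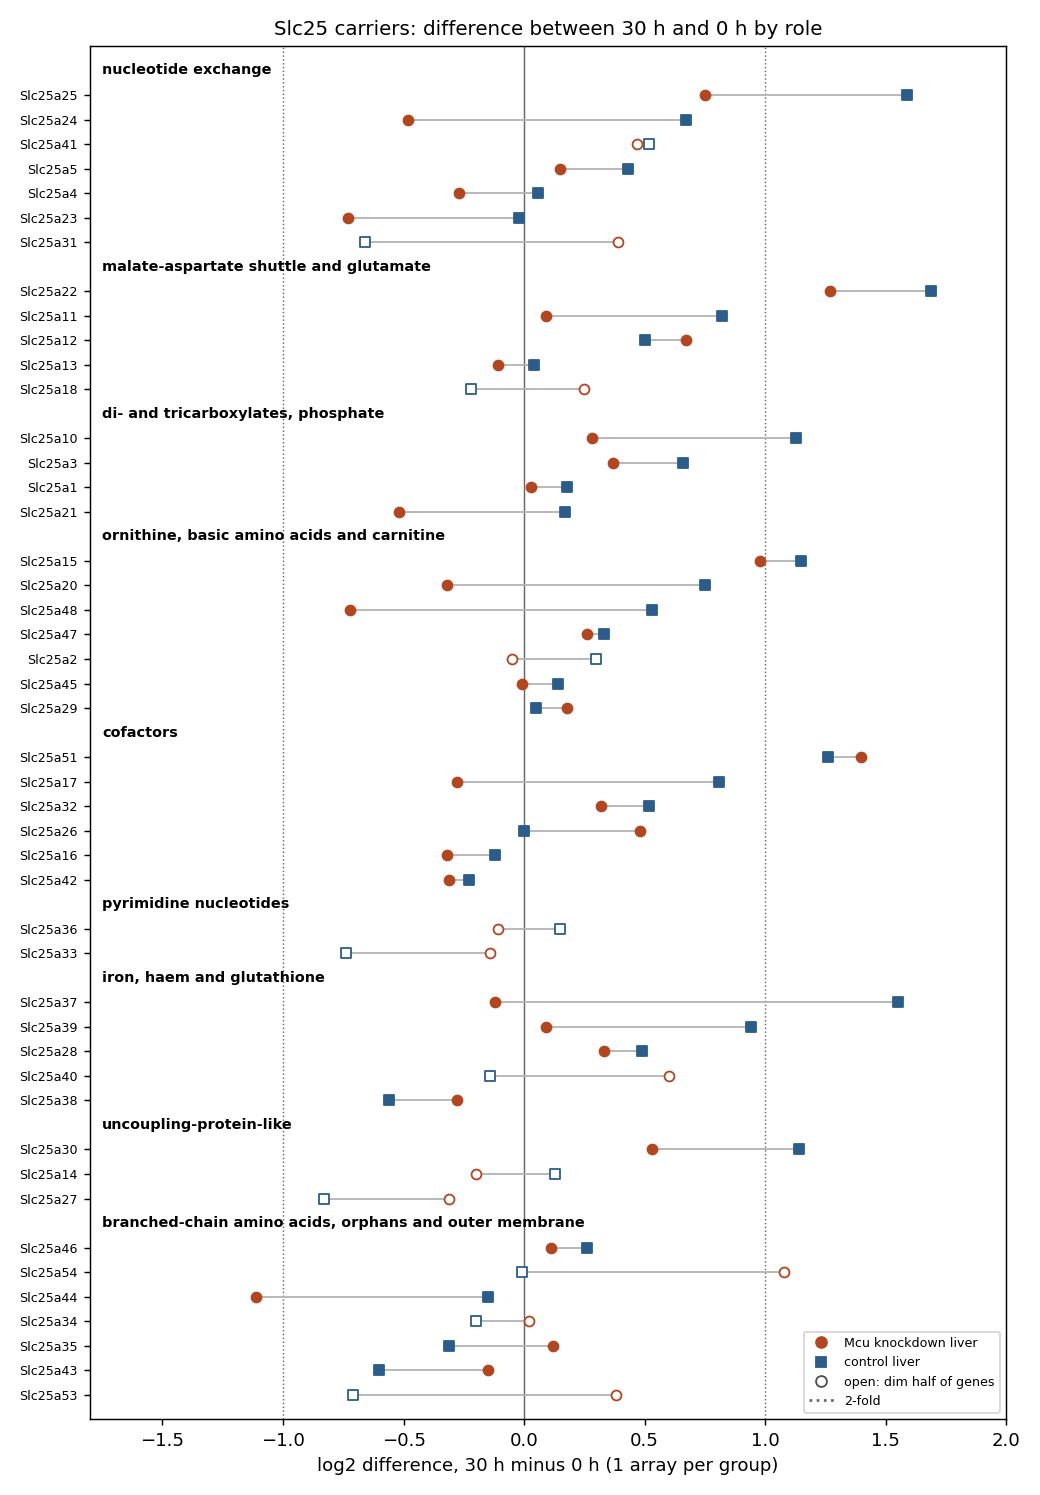
Log2 difference between 30 h and 0 h for each of the 46 carriers in knockdown (circles) and control liver (squares), by role, 1 array per group. Open symbols mark dim genes and dotted lines 2-fold. Slc25a22 and Slc25a51 lie past 2-fold in both genotypes, while Slc25a37 is at -0.12 in the knockdown and 1.55 in control liver.

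Among carriers of adenine nucleotides, Slc25a25 had the largest difference. It encodes a carrier that exchanges ATP-magnesium for phosphate and so sets the nucleotide pool of the matrix. It read 6.89 at 30 h and 6.14 at 0 h in knockdown liver, against 7.10 and 5.51 in control liver. Both 30 h arrays lay above both 0 h arrays. It was 1.68-fold higher at 30 h in the knockdown and 3.01-fold higher in control liver. At 0 h it was 0.63 higher in knockdown than in control liver, the second highest of the family.

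Promoter windows from RefSeq (GRCm38.p6), from 250 bases before to 50 after an annotated start, were at hand for 36 of the 46 genes. Slc25a25 has 3 annotated starts, which the probe set cannot tell apart. The window of one start holds TGACGTCA, the cAMP response element bound by CREB, which 1.79% of all 32851 windows hold on either strand. The only other carrier with it in this table is the pyrimidine nucleotide carrier Slc25a36, whose window also holds an E-box, CACGTG (7.15% of windows). Slc25a36 is shown as the contrast: it was dim and differed little, with 2.71 at 30 h and 2.82 at 0 h in knockdown liver and 2.83 and 2.68 in control liver. The last window, 1 of 2 annotated for the ornithine carrier Slc25a15 described below, has an E-box, as do windows of Slc25a1, Slc25a13, Slc25a14, Slc25a31 and Slc25a33, none of which differed 2-fold in any comparison of 2 arrays. A match of letters is a description and not a binding site. The motifs are in capitals, and each sequence runs 5′ to 3′ on the gene's strand, which is the minus strand for these 3 genes.
Slc25a25 (chr2:32424017-32424316): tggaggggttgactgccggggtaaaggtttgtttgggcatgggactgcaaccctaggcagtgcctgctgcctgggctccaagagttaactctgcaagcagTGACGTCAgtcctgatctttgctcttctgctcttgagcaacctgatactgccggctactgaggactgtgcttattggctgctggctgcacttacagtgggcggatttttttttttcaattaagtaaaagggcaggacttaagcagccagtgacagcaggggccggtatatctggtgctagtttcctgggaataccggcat
Slc25a36 (chr9:97110992-97111291): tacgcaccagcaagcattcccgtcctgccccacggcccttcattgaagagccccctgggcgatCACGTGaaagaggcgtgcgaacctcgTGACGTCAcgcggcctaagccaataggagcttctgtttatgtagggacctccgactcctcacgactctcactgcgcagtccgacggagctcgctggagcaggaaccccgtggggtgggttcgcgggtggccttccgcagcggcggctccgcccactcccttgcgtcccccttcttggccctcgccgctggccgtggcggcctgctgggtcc
Slc25a15 (chr8:22398228-22398527): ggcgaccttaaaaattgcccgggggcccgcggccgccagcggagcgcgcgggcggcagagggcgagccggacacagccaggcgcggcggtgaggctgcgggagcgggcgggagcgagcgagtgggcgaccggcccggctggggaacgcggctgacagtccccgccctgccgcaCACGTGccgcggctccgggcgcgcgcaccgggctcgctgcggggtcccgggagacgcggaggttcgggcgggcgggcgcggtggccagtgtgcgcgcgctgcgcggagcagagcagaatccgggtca

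The other nucleotide carriers differed less or differently. Slc25a24, also a calcium-binding ATP-magnesium/phosphate carrier, read 3.81 at 30 h and 4.29 at 0 h in knockdown liver, against 4.64 and 3.97 in control liver. The knockdown 30 h array was thus the lowest of the 4, just under the brightness limit (3.83), and the control 30 h array the highest. Slc25a23, another carrier of that kind, read 7.70 and 8.43 in knockdown liver and 8.23 and 8.25 in control liver, so the knockdown 30 h array was the lowest and the other 3 lay close together. Slc25a41, a shorter relative without the calcium-binding domain, was dim and read 3.38 and 2.91 in knockdown liver and 2.76 and 2.24 in control liver. Its knockdown value was higher at both times. The ADP/ATP exchangers Slc25a4 and Slc25a5, which supply the cytosol with ATP, differed by -0.27 and 0.15 between 30 h and 0 h in the knockdown and by 0.06 and 0.43 in control liver. The germ cell ADP/ATP carrier Slc25a31 was dim, with 2.28 at 30 h and 1.89 at 0 h in knockdown liver and 1.74 and 2.40 in control liver.

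The aspartate/glutamate carriers, which feed the malate-aspartate shuttle, also bind calcium. Slc25a13, citrin, the main form in liver, read 6.86 at 30 h and 6.97 at 0 h in knockdown liver, against 7.40 and 7.36 in control liver. Both knockdown arrays lay below both control arrays, by 0.54 at 30 h and 0.39 at 0 h. Slc25a12, aralar, read 5.19 and 4.52 in knockdown liver and 5.28 and 4.78 in control liver, with both 30 h arrays above both 0 h arrays. Of the 5 carriers listed as calcium-binding (Slc25a12, Slc25a13, Slc25a23, Slc25a24 and Slc25a25), 5 had a knockdown value below the control value at 30 h. Of all bright genes 61.2% did. The median difference of the 5 was -0.53, beside -0.11 for all bright genes. At 0 h 3 were higher, where 56.7% of bright genes were, and 2 lower, and the median was 0.18, beside 0.06. None of the 5 differed 2-fold between genotypes at either time. Under the scalings tried the Slc25a12 difference at 30 h reached 0.0077, so its sign is not settled. The dim Slc25a41 was originally on this list and was taken off once the values were at hand, because it lacks the domain. Its knockdown value was 0.62 above the control value at 30 h. The count of lower carriers at 30 h thus depends on the list.

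The glutamate carrier Slc25a22, which brings glutamate with a proton into the matrix, had the largest difference between times of any carrier in control liver. It read 7.67 at 30 h and 6.40 at 0 h in knockdown liver, and 7.95 and 6.26 in control liver, which is 2.41-fold and 3.23-fold higher at 30 h. Genotypes lay closer together than times. The oxoglutarate/malate carrier Slc25a11 read 7.71 and 7.62 in knockdown liver against 8.0 and 7.18 in control liver. It stood 0.09 higher at 30 h in the knockdown and 0.82 in control liver, beside 0.32 and 1.19 for Mdh2, the malate dehydrogenase of the matrix. Of the 4 shuttle enzymes listed, Got1 differed by 0.92 and 0.82, and Got2 and Mdh1 by no more than 0.26 either way. The second glutamate carrier, Slc25a18, was dim and differed by 0.25 in the knockdown and -0.22 in control liver.

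The 4 carriers of di- and tricarboxylates and phosphate all had higher values at 30 h in control liver, where 58.2% of all bright genes did, but the sign of Slc25a1 was not settled. Slc25a10, which exchanges malate or succinate for phosphate, read 7.89 at 30 h and 7.61 at 0 h in knockdown liver and 8.29 and 7.16 in control liver, 1.21-fold and 2.19-fold higher. Slc25a21, the carrier of oxoadipate, read 3.96 and 4.48 in knockdown liver against 4.82 and 4.65 in control liver, so the knockdown 30 h array was lowest. The phosphate carrier Slc25a3, needed for ATP synthesis, was higher at 30 h by 0.37 in the knockdown and 0.66 in control liver. Slc25a1, which exports citrate for lipid synthesis, differed by 0.03 and 0.18, and these changed sign with scaling, the second reaching -0.09.

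**Figure D2:**
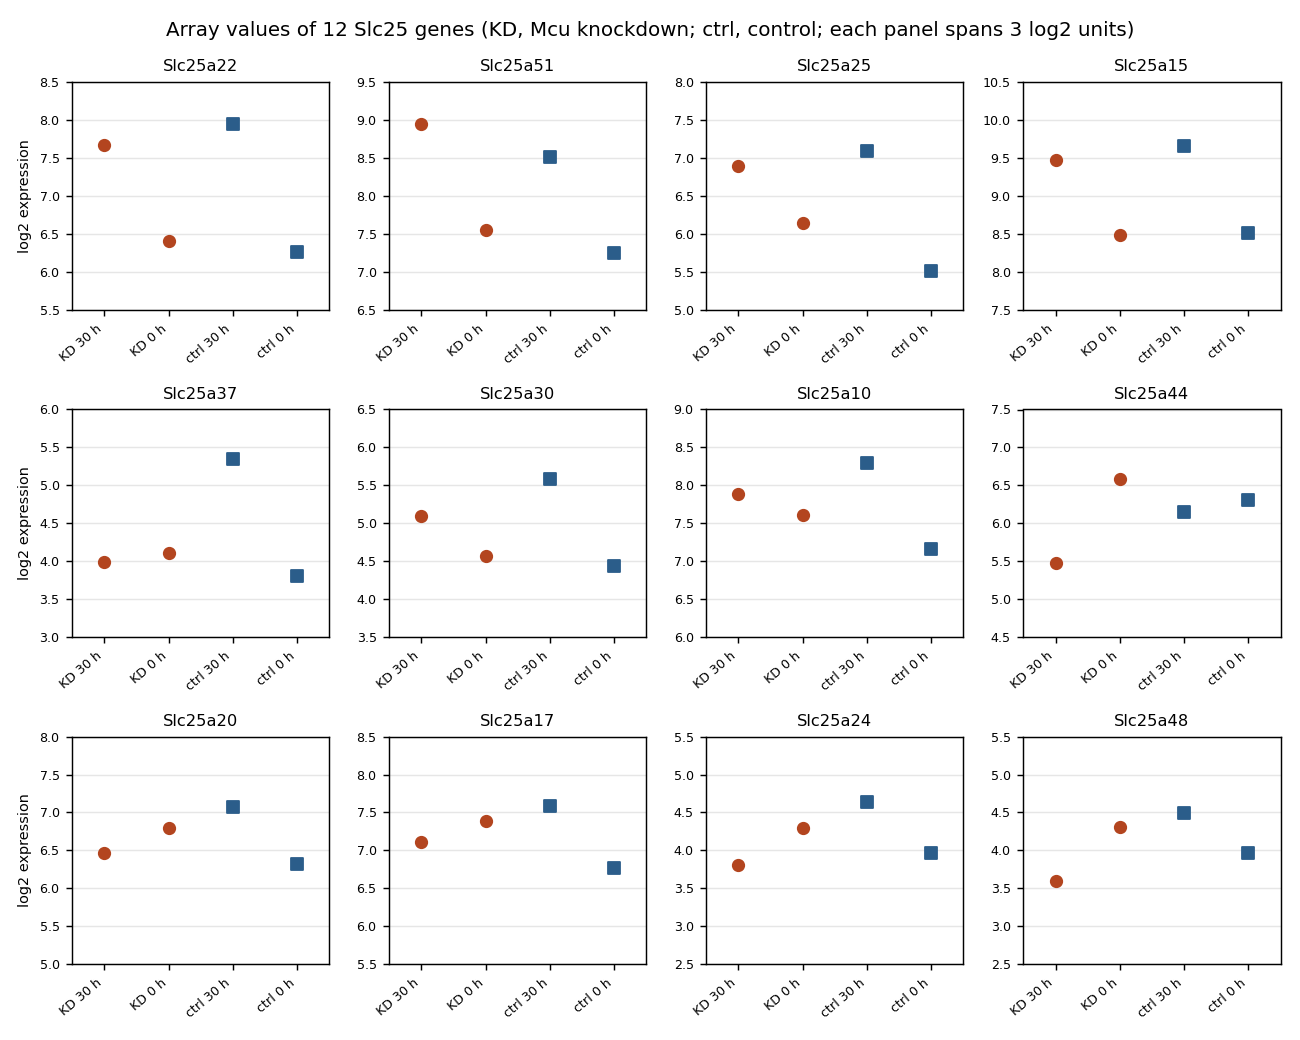
Log2 expression of 12 carriers on each of the 4 arrays, 30 h left of 0 h and knockdown (circles) left of control (squares). Each panel has its own position but the same span of 3 log2 units, so heights of different genes are not comparable. Slc25a15 and Slc25a22 separate by time, and Slc25a37 stands at 5.35 on the control 30 h array and between 3.80 and 4.11 on the other arrays.

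The ornithine carrier Slc25a15, which brings ornithine into the matrix for the urea cycle and takes citrulline out, separated by time and not by genotype. It read 9.47 at 30 h and 8.49 at 0 h in knockdown liver, and 9.66 and 8.51 in control liver, 1.97-fold and 2.22-fold higher. Of the enzymes of this route, Oat, ornithine aminotransferase, differed by 0.97 in the knockdown and 1.24 in control liver, Asl by 0.93 and 1.04, and Arg1 by 0.58 and 0.65. Otc, which uses the imported ornithine, was lower at 30 h in both genotypes (-1.09 and -1.01). Cps1 differed by 0.17 and 0.63 and Nags by -0.06 and 0.19. The other basic amino acid carriers differed by at most 0.30 either way between times: Slc25a29 by 0.18 and 0.05 and the dim Slc25a2 by -0.05 and 0.30.

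Slc25a20, which carries acylcarnitines into the matrix for fatty acid oxidation, had opposite differences in the genotypes. It read 6.47 at 30 h and 6.79 at 0 h in knockdown liver, against 7.07 and 6.32 in control liver. The difference between times was -0.32 in the knockdown and 0.75 in control liver. Slc22a5, the carnitine transporter of the cell surface, differed by 0.87 and 0.81. Cpt1a and Cpt2, the transferases on either side of the carrier, differed by -0.25 and 0.06 in the knockdown and by 0.16 and 0.28 in control liver. Slc25a48, a relative of this branch, was also lower at 30 h in the knockdown and higher in control liver. It read 3.59 and 4.31 in knockdown liver against 4.49 and 3.96 in control liver, the first of these under the brightness limit (3.83). Slc25a47, a liver-enriched carrier, was higher in the knockdown than in the control by 0.42 at 30 h and 0.49 at 0 h, and Slc25a45 differed by at most 0.14 in any comparison of 2 arrays.

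Among cofactor carriers, Slc25a51 imports NAD into mitochondria. It read 8.95 at 30 h and 7.55 at 0 h in knockdown liver and 8.51 and 7.25 in control liver, 2.64-fold and 2.39-fold higher, and this was the largest difference of the family in the knockdown. Slc25a17, a peroxisomal carrier of coenzyme A, FAD and NAD, read 7.11 and 7.39 in knockdown liver against 7.58 and 6.77 in control liver, so its differences between times had opposite signs. Slc25a32, linked to folate and FAD import, was higher at 30 h by 0.32 and 0.52. Slc25a26, which imports S-adenosylmethionine, differed by 0.48 and 0.00. Slc25a16 and Slc25a42, linked to coenzyme A transport, were lower at 30 h by small amounts, at -0.32 and -0.31 in the knockdown and -0.12 and -0.23 in control liver. The pyrimidine nucleotide carrier Slc25a33 was dim, with 2.80 at 30 h and 2.94 at 0 h in knockdown liver and 2.97 and 3.71 in control liver, the control 0 h array being highest.

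Slc25a37, mitoferrin-1, which imports iron for haem and iron-sulfur clusters, was the only carrier at least 2-fold apart between genotypes. It read 3.99 at 30 h and 4.11 at 0 h in knockdown liver, against 5.35 and 3.80 in control liver. The control 0 h value lay just under the brightness limit (3.83) and both knockdown values a little above it. At 30 h the knockdown was 2.57-fold lower than control (log2 difference -1.36), and at 0 h it was 0.31 higher. Its response differed between genotypes by -1.67, the lowest of the family. Mitoferrin-1 is known for its role in developing red cells, and 5 of 8 erythroid markers listed were measured. These averaged 4.07 and 4.16 in knockdown liver at 30 h and 0 h and 3.78 and 4.44 in control liver. At 30 h 4 of the 5 were higher in knockdown than in control liver, where 37.8% of bright genes and 49.2% of all genes were. Of the 4, Epb42 and Ermap were dim. Alas2, the red cell enzyme of haem synthesis, was lower (-0.42). Kupffer cell markers, all 9 measured, averaged 5.46 and 5.49 in knockdown liver and 5.81 and 5.05 in control liver. The average was highest on the control 30 h array, but Clec4f, C1qa, C1qb and C1qc were highest on the knockdown 0 h array. Timd4 was highest on the knockdown 30 h array. Of the 9, Marco differed most between times in control liver, by 2.62. At 30 h 8 of 9 had lower values in the knockdown than in control liver, where 61.2% of all bright genes did. The 8 sinusoidal endothelium markers averaged 4.67 and 5.39 in knockdown liver and 4.81 and 5.09 in control liver. For the 8 stellate cell markers the averages were 5.27 and 5.64 against 5.28 and 5.23. The part of these markers in the result was not tested, and in bulk tissue fewer cells of a type and less RNA per cell cannot be told apart.

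The other carriers of this group varied less. Mitoferrin-2, Slc25a28, was higher at 30 h by 0.33 in the knockdown and 0.49 in control liver. Slc25a38, which brings in glycine for the first step of haem synthesis, was lower by 0.28 and 0.56, while Alas1, the enzyme of that step in liver, was higher by 2.12 and 2.23. The glutathione carrier Slc25a39 read 9.45 at 30 h and 9.36 at 0 h in knockdown liver and 9.77 and 8.83 in control liver. Alad, the next haem enzyme, differed by 0.15 in the knockdown and 1.21 in control liver. Slc25a40, a close relative of Slc25a39, lay just under the brightness limit and read 4.23 and 3.63 in knockdown liver and 3.65 and 3.79 in control liver, the knockdown 30 h array being highest.

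**Figure D3:**
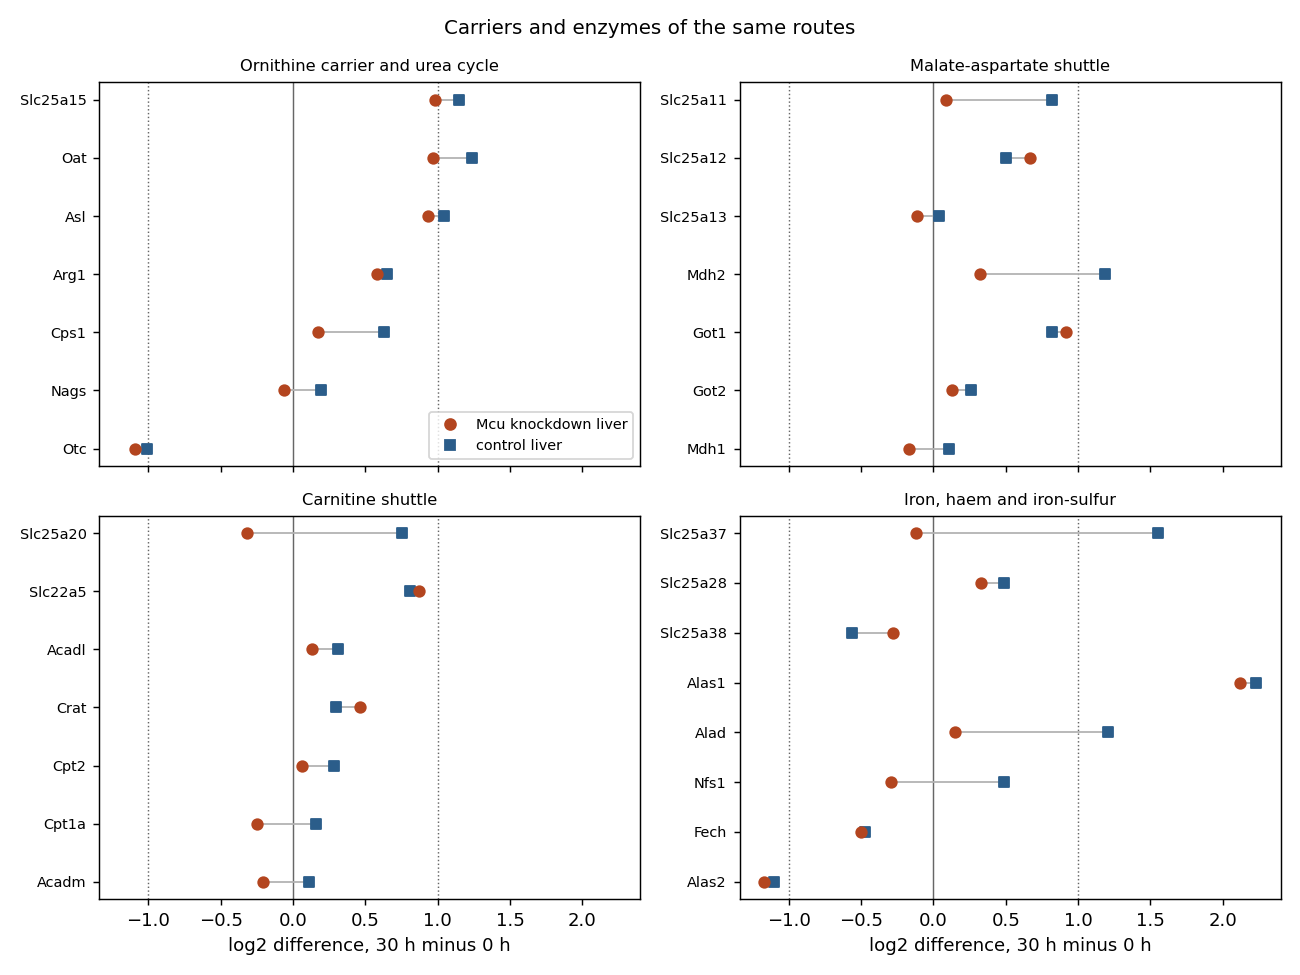
Log2 difference between 30 h and 0 h of carriers and of enzymes and transporters of the same routes, in knockdown (circles) and control liver (squares), with dotted lines at 2-fold. The genotypes lie close together for Slc25a15, Oat, Asl, Arg1 and Otc and far apart for Slc25a37, Slc25a20, Mdh2 and Alad.

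Slc25a30, a relative of the uncoupling proteins, read 5.09 at 30 h and 4.56 at 0 h in knockdown liver and 5.58 and 4.44 in control liver, 1.44-fold and 2.20-fold higher. Its relatives Slc25a14 and Slc25a27 were dim. Slc25a27 read 2.37 and 2.68 in knockdown liver and 2.22 and 3.05 in control liver, and Slc25a14 differed by -0.20 and 0.13 between times. Slc25a44, which carries branched-chain amino acids, was the only bright carrier at least 2-fold lower at 30 h in either genotype. It read 5.47 at 30 h and 6.58 at 0 h in knockdown liver, 2.16-fold lower, against 6.15 and 6.30 in control liver. Among the remaining carriers, the dim Slc25a54 read 4.07 and 2.99 in knockdown liver and 3.14 and 3.15 in control liver. The knockdown 30 h array thus stood above the rest. The dim Slc25a53 read 3.34 and 2.96 in knockdown liver and 2.76 and 3.47 in control liver. Slc25a34, Slc25a35 and Slc25a43 differed by 0.02, 0.12 and -0.15 in the knockdown and by -0.20, -0.31 and -0.60 in control liver. Slc25a46, an outer membrane member tied to mitochondrial shape, differed by 0.11 and 0.26.

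Set against control at the same time, knockdown liver had no carrier 2-fold apart at 0 h and 1 at 30 h. At 30 h that was 1 of 34 bright carriers, Slc25a37, against 3.3% of all bright genes at least 2-fold apart either way; 27 of 34 were lower, against 61.2% of all bright genes. At 0 h it was 0 of 34, against 1.89%, and 23 of 34 were higher, against 56.7%. The lowest differences at 30 h after Slc25a37 were in Slc25a48 (-0.90), Slc25a21 (-0.86) and Slc25a24 (-0.83). At 0 h the highest were in Slc25a41 (0.67), Slc25a25 (0.63) and Slc25a17 (0.62), and the lowest in Slc25a33 (-0.77). The count of lower carriers at 30 h was close to even after quantile normalization, with 18 of 34 lower against 52.4% of bright genes. The difference between the 2 responses, which uses all 4 arrays, was at least 2-fold lower in 5 of 34 bright carriers (Slc25a37, Slc25a48, Slc25a24, Slc25a17 and Slc25a20), against 7.43% of bright genes, and 3 of 34 after quantile normalization, against 5.28%. In 9 of 34 bright carriers a contrast ran in opposite directions in the 2 genotypes or at the 2 times by at least 0.25 each way, against 21.1% of bright genes, and over all genes in 11 of 46, against 22.5%.

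**Figure D4:**
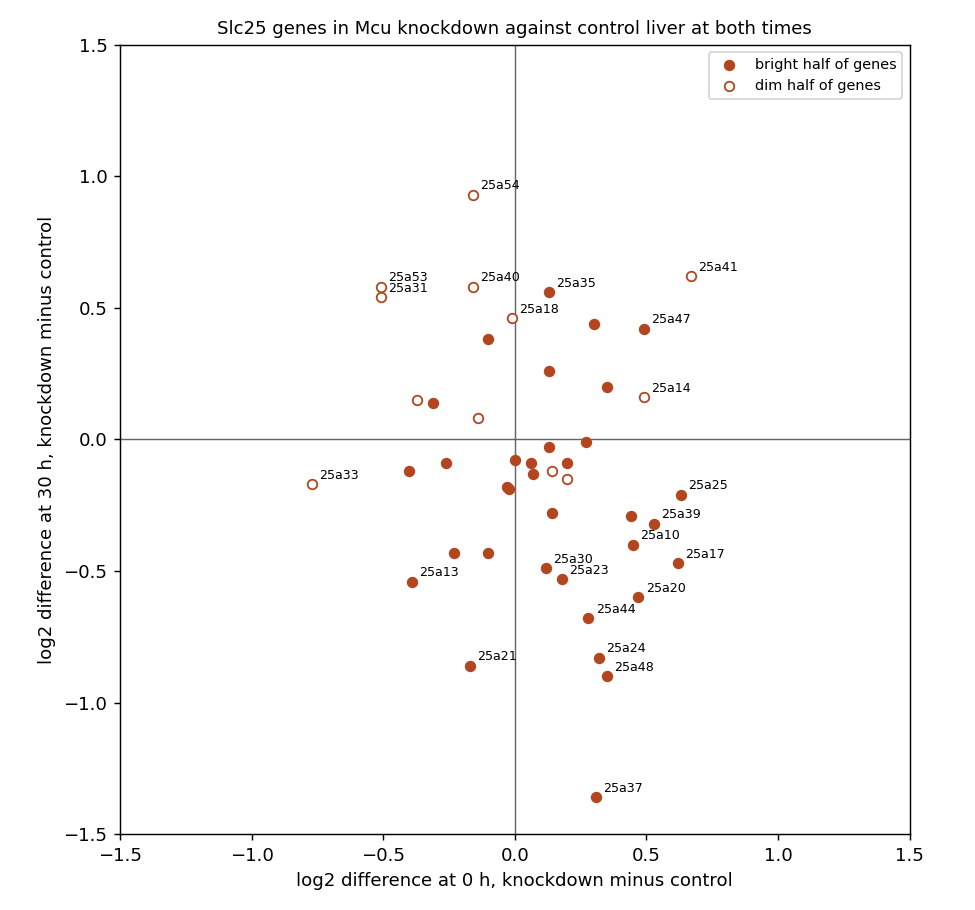
Log2 difference between knockdown and control liver at 30 h (vertical) and at 0 h (horizontal) for the 46 carriers, 1 point per gene, with open points for dim genes. Carriers in the lower right were lower at 30 h and higher at 0 h, such as Slc25a37 at -1.36 and 0.31 and Slc25a17 at -0.47 and 0.62.

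Of 20 other mitochondrial transporters listed, 17 were measured and 0 differed 2-fold in any comparison of 2 arrays. Between 1.89% and 7.59% of all bright genes did in each comparison. The response in the knockdown was lower than in control liver for 11 of the 17 and higher for 6, and it was lower for 63.2% of bright genes. Mpc1, a subunit of the pyruvate carrier, differed between 30 h and 0 h by -0.24 in the knockdown and 0.52 in control liver, the serine transporter Sfxn1 by -0.13 and 0.60, and its relative Sfxn5 by -0.58 and 0.36. Mtch2, a family member in the outer membrane with another name, differed by -0.17 and 0.12, and Mtch1 by 0.07 and -0.82. Abcb8 differed by 0.45 and -0.29, Abcb10 by 0.07 and -0.56, and the dim Sfxn3 by 0.53 and -0.30. The uncoupling protein genes Ucp1 and Ucp3 differed by -0.08 and -0.79 in the knockdown and by -0.29 and -0.24 in control liver.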

How the data were processed

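Total liver RNA was measured as biotin-labelled cDNA, per the labels' protocols. Per the submitters' processing notes, the authors used RMA in Affymetrix Expression Console, and the deposited values are on the log2 scale. No source used here gives versions, parameters or a genome build. Array medians lay between 3.75 and 3.84, pairs of arrays had r of 0.953 to 0.974 over 22206 probe sets, and precision is limited by having 4 arrays. The spread of values differed, with a standard deviation from 1.83 on the control 0 h array to 1.96 on the control 30 h array. The platform annotation named 19572 probe sets with 1 symbol and left 2634 unnamed, giving 19505 genes. Where a gene had several probe sets the brightest was used. Promoter sequences are from RefSeq, GRCm38.p6.

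Differences were taken between arrays and counted at 2-fold among the 9759 bright genes. The counting was tested on simulated data. Python 3.11.15, pandas 2.3.3 and limma 3.58.1 (cyclic loess) were used. Values on all arrays are given for carriers at least 2-fold apart, for the 3 highest or lowest of a comparison and for those with a calcium-binding domain. Slc25a11, Slc25a20, Slc25a36 and Slc25a39 were added after their values were seen. Members, lists and rules were chosen with earlier results of these data known. Alternatives were other sizes, filters, scalings, summaries and probe set rules. Part of the labels is not reported here.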

Additional observations from a re-analysis of the deposited data

Results flagged for a closer look

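In 11 carriers the same contrast ran in opposite directions in the 2 genotypes or at the 2 times, by at least 0.25 each way. Of all genes 22.5% met the same rule, and of bright genes 21.1%, beside 9 of 34 bright carriers. With 1 array per group the difference was not tested, and the limit of 0.25 was set after the data were seen. The values are the response in knockdown liver minus that in control liver, which equals the knockdown minus control difference at 30 h minus that at 0 h. Lower at 30 h and higher at 0 h in knockdown than in control liver were Slc25a37 (-1.67), Slc25a48 (-1.25), Slc25a24 (-1.15), Slc25a17 (-1.09), Slc25a20 (-1.07), Slc25a44 (-0.96), Slc25a10 (-0.85), Slc25a39 (-0.85) and Slc25a11 (-0.73). Of these, Slc25a48, Slc25a24, Slc25a17 and Slc25a20 also ran in opposite directions between 30 h and 0 h, lower at 30 h in the knockdown and higher in control liver. Quantile normalization and cyclic loess, tried for this rule after seeing the data, each left 5 of the 34 bright carriers, against 17.7% of bright genes. Slc25a44, Slc25a10, Slc25a39 and Slc25a11 no longer met the rule under either, and neither did Slc25a17 between times. The dim genes Slc25a53 (1.09) and Slc25a31 (1.05) ran the other way in both contrasts. Over all bright genes the median of this quantity was -0.18. The 9 Kupffer cell markers, with a median of -0.75 for it, ran the same way as most of these carriers, with 8 of 9 lower. So did the 8 sinusoidal endothelium markers, with a median of -0.85 and 6 of 8 lower, and the 8 stellate cell markers, with -0.21 and 6 of 8. Of bright genes 63.2% were lower. Other marker lists had medians above 0: adipocyte 0.58, with 5 of 5 higher, and erythroid 0.48, with 4 of 5. Cholangiocyte markers had 0.34, with 3 of 4 higher, and skeletal muscle markers 0.32, with 3 of 5. Neutrophil markers had 0.015, with 4 of 8 higher, and hepatocyte markers -0.085, with 7 of 10 lower. The part of these markers in the result was not tested.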

How the results depend on the processing

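Among the 34 bright carriers, counts at least 2-fold apart either way were 1 and 0 for knockdown against control at 30 h and 0 h. They were 3 and 7 for 30 h against 0 h in knockdown and control, and 5 for the difference of responses. The shares of all bright genes were, in this order, 3.3%, 1.89%, 5.38%, 7.59% and 10.7%. At 1.5-fold the counts were 6, 2, 8, 14 and 13, against 18.8%, 12.2%, 21.1%, 25.6% and 32.2%. At 3-fold they were 0 at 30 h (0.246% of bright genes), 0 in knockdown (1.22%), 2 in control (1.76%) and 1 for the difference of responses (1.6%). Among the 22 carriers at or above percentile 75 the count at 30 h was 0, against 1.58% of such genes. That of the difference of responses was 2, against 6.74%. With no filter the count for the difference of responses was 8 of 46, against 11.8% of all genes. After quantile normalization or cyclic loess it was 3 of 34, against 9.15% of bright genes either way. Quantile normalization left 4 of 34 in control liver, against 6.45% either way. The median over the 46 genes for knockdown minus control at 30 h, -0.12, was -0.005 after quantile normalization and 0.0046 after cyclic loess. That of the difference of responses, -0.17, was 0.013 and 0.0047. The median in control liver, 0.18, was 0.46 over bright genes, and the mean was 0.29. A median counts as moved past 0.1. Slc25a10 and Slc25a15 in control liver came under 2-fold after quantile normalization (0.89 and 0.85) and cyclic loess (0.88 and 0.93), and Slc25a51 after quantile normalization (1.00). The cause was not tested. No paired analysis was possible because each group has 1 array. Without replicates no array could be left out.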
